A study of Mus musculus with 162 samples.

Results

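The genes described here are 10 markers of tissue-resident macrophages, out of 53686 genes in the deposited count table. They comprise 4 general macrophage genes (Adgre1, Csf1r, Cd68 and Mrc1), 3 genes of Kupffer cells, the macrophages of the liver (Clec4f, Timd4 and Vsig4), and 3 genes of microglia, the macrophages of the brain (P2ry12, Tmem119 and Trem2). As background, macrophages live in most organs, where many depend on signalling through the CSF1 receptor and clear dying cells and debris. Kupffer cells sit in the liver sinusoids and take up particles and microbes from the blood, and microglia survey the nervous tissue. Each resident population carries, beside the genes that macrophages share, receptors that depend on the organ, and these serve as its markers.

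The study followed gene expression in mouse organs during short fasts. Male C57BL/6J mice aged 8 to 9 weeks were fed ad libitum (0 h) or fasted for 2, 8, 12, 18 or 22 h, with 3 mice per time point and 18 mice in all. The fasts began at different hours, so that all organs were taken at the same hour early in the dark phase. From every mouse 9 organs were sequenced as stranded mRNA libraries. The 4 nervous organs are the brainstem (BST), cerebellum (CBL), olfactory bulb (OB) and the brain itself (BRN). The others are the liver (LIV), the stomach (STM) and 3 fats, which are iBAT (brown, interscapular), pgWAT (white, perigonadal) and psWAT (white, posterior-subcutaneous). The study's exclusion list removes 5 libraries, and those retained are 18 each in OB, CBL, BST, LIV and pgWAT, 17 each in STM, iBAT and psWAT, and 16 in BRN. Retained libraries held 3045845 to 27801717 counts with a median of 8735554. Levels are normalized CPM, in which each library total is scaled by its TMM factor, and a gene with at most 3 counts in every library of an organ is taken to lie at the floor there. Across the retained libraries 3 counts equal 0.113 to 1.29 normalized CPM, and levels at or below that are not told apart from 0.

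By the GRCm38 annotation the 10 genes lie on 8 chromosomes. Adgre1 (chr17:57358691-57483527) and Trem2 (chr17:48346401-48354147) share a chromosome, as do Cd68 (chr11:69664213-69666153) and Timd4 (chr11:46810800-46844332). The others are Csf1r (chr18:61100598-61132149), Mrc1 (chr2:14229392-14332057), Clec4f (chr6:83644542-83656187), Vsig4 (chrX:96247203-96293438), P2ry12 (chr3:59216272-59262871) and Tmem119 (chr5:113793729-113800516). Exons of Csf1r overlap Hmgxb3 on the other strand, which had medians of 20.1 to 50.8 normalized CPM by organ, and exons of P2ry12 overlap Med12l on the other strand, with medians of 1.09 to 45.1. The strand setting of the authors' counting was not given in the sources used, and any counts shared between these pairs cannot be told apart.

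Marker genes of the organs' main cells placed the libraries in their labelled organs, with a few libraries standing apart. Summed over 4 hepatocyte genes (most abundant Alb), LIV libraries reached 112408 to 149209 normalized CPM, and summed over 4 neuron genes (most abundant Snap25), the nervous organs held 1619 to 4669. In psWAT 12 h replicate 3, 4 cerebellar neuron genes (most abundant Cbln3) summed to 1875 against a psWAT median of 0.412. In pgWAT, 4 epididymis genes (most abundant Crisp1) summed to 18416 at 22 h replicate 2, 10748 at 18 h replicate 3 and 2488 at 2 h replicate 2, against a median of 8.61. The first of these also had the lowest sum of 4 adipocyte genes (most abundant Adipoq), 1290 against a median of 11431. T cell genes (4, most abundant Cd8a) in psWAT summed to 91.4 to 666. Levels of some members in these libraries are given with the organs concerned, and the part of the other cells in them was not tested.

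Each of the general macrophage genes had its highest mean in pgWAT. Adgre1, which encodes the surface receptor F4/80, averaged 50.8 ± 16.4 normalized CPM in pgWAT (SD, n = 18; range 12.4 to 75.1, median 52.8). Below it came psWAT at 12.9 ± 6.85 (n = 17), iBAT 7.73 ± 3.55 (n = 17), OB 6.82 ± 0.915 (n = 18), LIV 6.10 ± 2.62 (n = 18), BRN 4.46 ± 1.92 (n = 16), STM 4.40 ± 1.59 (n = 17), BST 3.88 ± 1.06 (n = 18) and CBL 2.03 ± 0.640 (n = 18). From iBAT down to BST neighbours in this order were not told apart (edgeR adjusted p 0.0535 to 0.719). In bulk organs the number of macrophages, the gene's RNA per macrophage and its RNA from other cells cannot be told apart. This holds for every level given here.

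Csf1r encodes the receptor for CSF1 and IL34, on which many resident macrophages depend. It averaged 151.1 ± 50.8 in pgWAT, 77.7 ± 41.6 in psWAT, 71.7 ± 10.6 in BRN, 65.5 ± 6.89 in OB, 57.1 ± 17.4 in LIV, 47.6 ± 5.88 in BST, 22.3 ± 2.91 in CBL, 20.7 ± 7.15 in iBAT and 17.1 ± 5.47 in STM (normalized CPM, SD, n as above). From psWAT to BST neighbours were not told apart (edgeR adjusted p 0.114 to 0.699), nor were CBL and iBAT (0.255) or iBAT and STM (0.141). CBL alone of the nervous organs lay far below the rest, with a highest library of 26.5 against a lowest of 37.2 in BST. Cd68, a glycoprotein of macrophage lysosomes, averaged 41.7 ± 14.5 in pgWAT, 26.2 ± 11.8 in psWAT, 14.9 ± 4.59 in LIV, 8.62 ± 4.79 in BRN, 8.14 ± 1.59 in OB, 7.35 ± 2.18 in STM, 4.86 ± 2.36 in iBAT, 3.22 ± 0.753 in BST and 2.15 ± 0.460 in CBL. The neighbours BRN and OB (edgeR adjusted p 0.704) and OB and STM (0.357) were not told apart. In BRN the library of 12 h replicate 2 stood at 24.9, against a median of 8.44 there.

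Mrc1 encodes the mannose receptor CD206, which binds sugars on microbes and on secreted proteins and is carried by liver sinusoidal endothelium beside macrophages. It averaged 129 ± 36.2 in pgWAT, 45.8 ± 8.00 in LIV, 35.5 ± 13.0 in psWAT, 17.4 ± 6.05 in iBAT, 8.64 ± 1.99 in STM, 5.93 ± 1.6 in OB, 3.41 ± 1.58 in BRN, 2.93 ± 1.09 in BST and 2.49 ± 0.569 in CBL (normalized CPM, SD). Neighbours from BRN to CBL were not told apart (edgeR adjusted p 0.133 and 0.231). The 5 sinusoidal endothelium genes measured beside it (most abundant Stab1) summed to 239 to 343 in LIV and 59.5 to 231.2 in pgWAT, and their part in the Mrc1 level was not tested. In pgWAT the libraries with the highest epididymis sums held less of these genes than most: 22 h replicate 2 had Adgre1 at 12.4, Csf1r at 38 and Mrc1 at 31.1, and 18 h replicate 3 had 18.8, 71.8 and 72.2. At 2 h replicate 2 Adgre1 was 45.3, within the range of the other libraries.

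The 3 Kupffer cell genes differed in how closely they kept to LIV. Clec4f, a lectin receptor for galactose-bearing ligands used as a mouse Kupffer cell marker, had 506 to 1440 counts in LIV, 113.4 to 231.7 normalized CPM (mean 161.6 ± 39.6, SD, n = 18). No count of it was found in 14 of 18 libraries of OB, 15 of 16 of BRN, 18 of 18 of CBL, 16 of 18 of BST, 12 of 17 of STM, 17 of 17 of iBAT, 15 of 18 of pgWAT and 16 of 17 of psWAT, and in OB, BRN, CBL, BST, iBAT and psWAT it lay at the floor. Set against 3 counts in the shallowest library of each organ, the LIV mean was at least 544-fold higher than OB, 449-fold than CBL, 430-fold than BST, 256-fold than psWAT, 195.7-fold than BRN and 125.4-fold than iBAT. In STM the highest library held 5 counts. In pgWAT 15 of 18 libraries had no count, and 18 h replicate 2 had 27 counts, or 4.10 normalized CPM. That library also had the highest sum of hepatocyte genes in pgWAT, 11037 against a median of 4503 (most abundant gene Cyp2e1, which pgWAT expresses throughout), and the part of liver RNA in it was not tested.

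Vsig4, a complement receptor through which Kupffer cells capture particles coated with C3 fragments, averaged 26.2 ± 9.69 normalized CPM in LIV (13.7 to 49.4). In pgWAT it averaged 3.73 ± 2.23 (0.985 to 9.47), with every library above 3 counts. In psWAT it averaged 0.146 ± 0.249 and in BRN 0.0717 ± 0.217. In OB, CBL, BST, STM and iBAT it lay at the floor, which put LIV at least 88.2-fold higher than OB, 72.9-fold than CBL, 69.7-fold than BST, 51.4-fold than STM and 20.3-fold than iBAT. Against the same floors pgWAT was at least 12.6-fold higher than OB, 10.4-fold than CBL, 9.93-fold than BST, 7.32-fold than STM and 2.90-fold than iBAT.

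Timd4 encodes TIM-4, a receptor for phosphatidylserine on dying cells, and it was not highest in LIV. In psWAT it averaged 58 ± 40.3 normalized CPM (SD, n = 17; range 5.47 to 125.4, median 54), in LIV 9.66 ± 4.07 (3.46 to 20.9) and in pgWAT 8.31 ± 2.98 (1.28 to 14.7). In iBAT it averaged 0.809 ± 0.524, in STM 0.330 ± 0.332 and in the nervous organs at most 0.117, with BRN at the floor. LIV and pgWAT were not told apart (edgeR adjusted p 0.399), while LIV was lower than psWAT by a log2 fold change (log2FC) of -2.57 (SE 0.27, adjusted p 1.86e-16). The psWAT libraries lowest in Timd4 were 12 h replicate 3 (5.47), 8 h replicate 1 (6.34), 8 h replicate 3 (12.3), 18 h replicate 3 (15.7) and 22 h replicate 3 (17.5). The lowest is the library with cerebellar neuron genes. In these data Timd4 was therefore not a gene of LIV alone, and the part of the lymphoid cells of psWAT in its level was not tested.

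Among the microglia genes P2ry12 was the closest to the nervous organs. It encodes an ADP receptor by which microglia sense injury. It averaged 28 ± 3.52 normalized CPM in OB (21.9 to 34.5), 20.1 ± 4.70 in BST (10.3 to 28.6), 17.1 ± 5.52 in BRN (9.31 to 28.9) and 11.0 ± 1.76 in CBL (8.32 to 14.3). Below these came psWAT at 6.29 ± 3.45, pgWAT 6.10 ± 1.93, LIV 1.66 ± 0.601, iBAT 0.903 ± 0.496 and STM 0.879 ± 0.564. BST and BRN (edgeR adjusted p 0.238), psWAT and pgWAT (0.717) and iBAT and STM (0.818) were not told apart.

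Tmem119, a membrane protein used as a microglia marker, had its highest mean in perigonadal fat and not in a nervous organ. It averaged 27.6 ± 9.85 in pgWAT (14.0 to 53.0), 23.2 ± 3.23 in OB, 21.6 ± 4.47 in BRN, 14.4 ± 2.65 in BST, 12.4 ± 3.44 in STM, 9.15 ± 3.38 in psWAT, 6.94 ± 1.05 in CBL, 3.31 ± 1.24 in iBAT and 1.78 ± 0.545 in LIV (normalized CPM, SD). The pairs pgWAT and OB (edgeR adjusted p 0.102), OB and BRN (0.577) and BST and STM (0.0803) were not told apart. CBL, a nervous organ, stood below STM and psWAT. Trem2, a lipid-binding receptor that signals through the adaptor TYROBP, averaged 25.3 ± 10.7 in BRN (12.7 to 54.7), 14.6 ± 2.72 in OB, 12.2 ± 4.34 in pgWAT, 9.18 ± 1.02 in BST, 5.38 ± 0.847 in CBL, 4.10 ± 5.45 in psWAT, 2.28 ± 1.5 in STM, 1.34 ± 0.849 in LIV and 0.688 ± 0.526 in iBAT. OB and pgWAT (edgeR adjusted p 0.250), pgWAT and BST (0.127) and CBL and psWAT (0.0580) were not told apart. In psWAT the Trem2 mean rested on 18 h replicate 3 (22.4), 8 h replicate 1 (10.1) and 12 h replicate 3 (9.63), against a median of 2.07. The last of these is the library with cerebellar neuron genes.

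**Figure D1:**
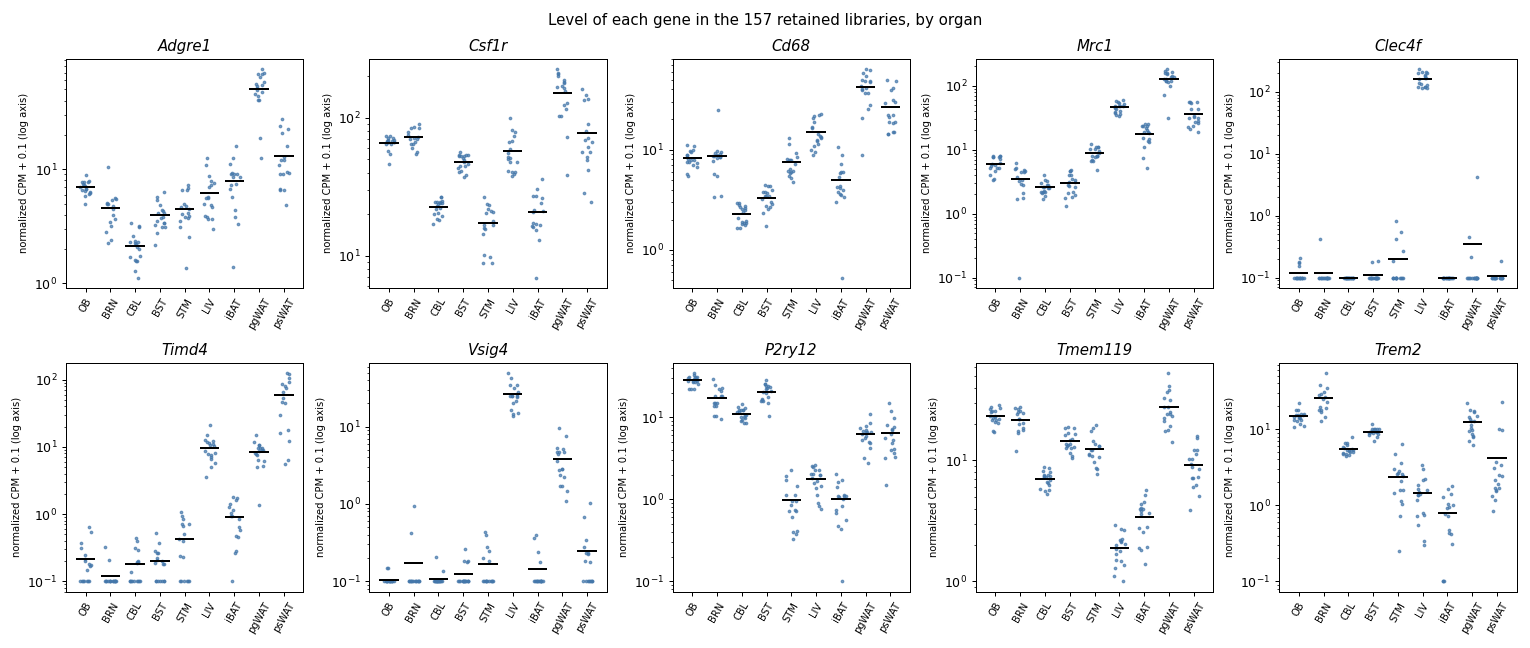
Level of each of the 10 genes in the retained libraries, in a panel per gene, with normalized CPM plus 0.1 on a logarithmic axis against organ; points are libraries and bars are organ means. Clec4f stands between 113.4 and 231.7 in LIV and at most at 4.10 elsewhere, Timd4 is highest in psWAT (mean 58), and P2ry12 is highest in OB (mean 28).

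Over the 10 genes there were 80 pairs of neighbours in the orders of organ levels. In 9 of them both organs lay at the floor, and of the 71 others 39 differed at an edgeR adjusted p under 0.05 and 32 did not. Those that differed include pairs in which the gene failed the count filter in the lower organ or in both. These are Clec4f in LIV and pgWAT, Vsig4 in pgWAT and psWAT, Trem2 in LIV and iBAT, and Timd4 in iBAT and STM and in STM and OB. Such a test adds nothing to the levels. Over all genes and all 36 pairs of organs 75.6% of the tests had an edgeR adjusted p under 0.05. That share includes pairs of organs far apart in level, while neighbours are the closest ones. The share of neighbours that differed therefore cannot be set against it. With plain CPM in place of normalized CPM 11 neighbours changed places. Of these Cd68 in LIV and BRN and in iBAT and BST, Mrc1 in LIV and psWAT, and Tmem119 in STM and psWAT belonged to the pairs that differed. Among genes, levels can be compared only per kilobase of exon. On that scale the highest organ means were 65.4 for Clec4f in LIV, 33.2 for Cd68 in pgWAT, 26.7 for Timd4 in psWAT, 26.2 for Csf1r in pgWAT, 20.2 for Mrc1 in pgWAT, 17.7 for Vsig4 in LIV, 15.7 for Adgre1 in pgWAT, 11.9 for Tmem119 in pgWAT and 11.0 for P2ry12 in OB (normalized CPM per kilobase). Trem2 is left out of this comparison, since its annotated exon length of 4946 bases includes a transcript with a retained intron.

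The comparison of LIV with the mean of the 8 other organs asks where the Kupffer cell genes stand. A call needed an absolute log2FC over 1 together with an edgeR adjusted p under 0.05. All 3 Kupffer cell genes and Mrc1 were called higher in LIV, and all 3 microglia genes were called lower. Clec4f passed the count filter in LIV alone and was tested for that reason, so its call adds nothing to its levels. Among all 21601 genes tested 21.3% were called higher and 30.5% lower. Mrc1 had a log2FC of 2.17 (SE 0.10, adjusted p 4.26e-49). Every LIV library (33.2 to 59.2) stood above every library of the 4 nervous organs, STM and iBAT (at most 24.9). In pgWAT the mean of 129 lay above that of LIV (edgeR adjusted p 1.37e-17), and the psWAT libraries overlapped with LIV. No fitted values are given for Clec4f and Vsig4, at the floor in 6 and 5 of the other organs, for which the bounds are given above, and Timd4 was called although psWAT lay above LIV, since the comparison averages log levels over organs. Tmem119 had a log2FC of -2.80 (SE 0.13, adjusted p 1.26e-45), Trem2 -2.14 (SE 0.23, adjusted p 9.37e-16) and P2ry12 -1.96 (SE 0.16, adjusted p 1.89e-24). Cd68 (0.85, adjusted p 4.99e-11) and Csf1r (0.29, adjusted p 0.00836) were higher by less than the fold threshold, and Adgre1 did not pass (-0.19, adjusted p 0.221).

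Over the 10 genes the median log2FC of LIV was 0.57, against -0.35 over all genes tested. It counts Clec4f, which was tested through LIV alone, and is not used further. The sizes of the log2FC between organs depend on the scaling. Without TMM factors the median of all genes moved by -0.73 in the LIV comparison, by 0.40 in the nervous one, by 0.10 for CBL, by -0.25 for pgWAT over psWAT and by -0.68 for iBAT over white fat. The 7 calls in LIV remained under that scaling, with Mrc1 at 1.41, while Csf1r turned to -0.49 (adjusted p 7.22e-05), Cd68 no longer passed the p threshold (0.08, adjusted p 0.596) and Adgre1 did (-0.96, adjusted p 2.71e-09). Among 11 further Kupffer cell genes, all 11 were called higher in LIV (median log2FC 3.87), among them Slc40a1, the iron exporter ferroportin, at 3.87 and Nr1h3, the oxysterol receptor LXR alpha, at 3.61. Of 14 further microglia genes 2 were called higher and 7 lower (median -0.81). Those higher were Sall1 (3.32), a transcription factor, and Aif1 (1.09). Of 11 further macrophage genes 3 were called higher and 2 lower, of 9 partners and regulators of CSF1R and TREM2 3 and 1, and of 8 lipid-associated macrophage genes 2 and 5. These lists were chosen with earlier results of these data known. A listed gene may also have passed the count filter only on the side where it was higher. Their counts are therefore a description here and in the comparisons of organs below.

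In the 4 nervous organs against the mean of the 5 others, all 3 microglia genes were called higher and 5 members lower, where 27.7% of all genes were called higher and 26% lower. P2ry12 had a log2FC of 3.07 (SE 0.08, edgeR adjusted p 1.65e-75), Trem2 2.26 (SE 0.12, adjusted p 7.87e-41) and Tmem119 1.10 (SE 0.06, adjusted p 5.38e-37). Tmem119 thus barely passed the fold threshold, and its range over alternatives was 1.00 to 1.5. Those called lower were Mrc1 at -3.12 (SE 0.08, adjusted p 5.39e-77), Cd68 at -1.56 (SE 0.08, adjusted p 2.99e-40), Adgre1 at -1.37 (SE 0.09, adjusted p 1.01e-31), and Timd4 and Vsig4. For Timd4, at the floor in BRN, psWAT was at least 70.2-fold higher than BRN, LIV at least 11.7-fold and pgWAT at least 10.1-fold. The call of Adgre1 was lost without TMM factors (-0.97). Csf1r did not pass, at 0.05 (SE 0.07, adjusted p 0.545), but passed the p threshold without TMM factors (0.44, adjusted p 9.36e-09). Clec4f, Timd4 and Vsig4 passed the count filter in no nervous organ, so the calls of Timd4 and Vsig4 as lower add nothing to their levels, and 3 of the 5 rest on genes that passed on both sides. The median over the 10 genes was -1.47, against -0.11 over all genes. It counts the 3 genes that passed the filter in no nervous organ, and is not used further. Of the members that passed on both sides 3 were called higher and 3 lower, with Csf1r between them at 0.05.

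Of the 14 further microglia genes 7 were called higher in the nervous organs and 1 lower (median 0.99), with Sall1 at 4.26, the chemokine receptor Cx3cr1 at 3.00 and Siglech, a sialic acid receptor, at 2.76, and Tgfbr1 lower at -1.02. Of the 11 Kupffer cell genes 10 were called lower, and of the 11 macrophage genes 6. Some genes of these lists failed the count filter in OB and entered the fit through other organs. Where none of those was a nervous organ, a call as lower adds nothing, so the counts of these lists are not used further. Of the 9 partners and regulators 1 was called higher and 5 lower, and of the 8 lipid-associated genes 1 and 4.

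CBL was compared with the mean of OB, BRN and BST. Here 5 of the 10 members were called lower, against 12.4% of all genes lower and 6.74% higher. The log2FC was -1.49 for Trem2 (SE 0.20, edgeR adjusted p 7.53e-11), -1.48 for Tmem119 (SE 0.11, adjusted p 7.21e-25), -1.48 for Cd68 (SE 0.15, adjusted p 4.26e-16), -1.44 for Csf1r (SE 0.13, adjusted p 1.29e-20) and -1.29 for Adgre1 (SE 0.16, adjusted p 6.15e-12). P2ry12 (-0.95, adjusted p 1.82e-10) and Mrc1 (-0.68, adjusted p 1.41e-05) were lower by less than the fold threshold. Tmem119 in CBL, 5.17 to 8.66, lay below every library of the other nervous organs, the lowest of which was 10.3 in BST. Of the 14 further microglia genes 10 were called lower (median -1.41), among them Sall1 at -2.68 and the complement genes C1qa, C1qc and C1qb at -1.47, -1.46 and -1.45. Of the 9 partners and regulators 7 were called lower and 1 higher. Of the 11 macrophage genes 3 were called lower, of the 8 lipid-associated genes 4, and of the 11 Kupffer cell genes 1 lower and 1 higher. The median over the 7 members that passed the count filter in an organ compared was -1.44, against -0.09 over all genes.

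Of the white fat depots, pgWAT held more of most members than psWAT. Here 6 members were called higher in pgWAT and 1 lower, against 19.8% and 24.2% of all genes. Adgre1 had a log2FC of 2.00 (SE 0.18, edgeR adjusted p 3.83e-20), Mrc1 1.84 (SE 0.15, adjusted p 1.57e-22), Trem2 1.63 (SE 0.24, adjusted p 1.07e-09) and Tmem119 1.57 (SE 0.13, adjusted p 4.55e-22). For Vsig4 no fitted value is given, since it failed the count filter in psWAT, where each library lay below each of pgWAT (at most 0.928 against at least 0.985). The sixth was Clec4f, which failed the filter in both depots and was tested only because it passed in LIV. Its call rested on the library of pgWAT 18 h replicate 2 with 27 counts, was absent by DESeq2 and without the replicates numbered 2, and is not used further. Timd4 was lower at -2.82 (SE 0.27, adjusted p 2.14e-18). Csf1r (0.95, adjusted p 2.06e-09) and Cd68 (0.65, adjusted p 1.75e-04) were higher by less than the fold threshold, and P2ry12 did not pass (-0.07, adjusted p 0.717; without TMM factors -0.36, adjusted p 0.0414). The median over the 9 members that passed the filter in a depot was 1.57, against -0.03 over all genes. It counts Vsig4, which failed in psWAT, and is not used further. The members that passed in both depots lay from -2.82 for Timd4 to 2.00 for Adgre1.

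Without the 3 pgWAT libraries with the highest epididymis sums, an alternative chosen after seeing the data, the count of called members, 7 with Clec4f, did not move. Of the further lists, the microglia genes split into 5 higher in pgWAT (Fcrls at 3.08) and 5 lower (Selplg at -2.91), and the Kupffer cell genes into 5 higher (Cd163, the haemoglobin scavenger receptor, at 2.82) and 4 lower (Spic at -4.05 and Marco at -3.88). The macrophage genes gave 6 higher and 2 lower, the partners and regulators 1 and 4, and the lipid-associated genes 2 and 1.

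Brown fat held less of 9 members than the mean of the white depots, all 9 called lower, against 29.2% of all genes lower and 14.4% higher. The log2FC was -4.69 for Timd4 (SE 0.31), -2.79 for Cd68 (SE 0.17), -2.77 for P2ry12 (SE 0.18), -2.41 for Csf1r (SE 0.14), -2.28 for Tmem119 (SE 0.13), -1.99 for Mrc1 (SE 0.14) and -1.78 for Adgre1 (SE 0.17), with edgeR adjusted p from 4.29e-36 to 6.29e-19. The others were Trem2 and Vsig4, which failed the count filter in iBAT and were tested through white fat, where they are higher, so their calls add nothing to their levels and no fitted values are given. Trem2 held at most 3 counts in 8 of 17 iBAT libraries, and Vsig4 lay at the floor in iBAT. The bound above for Vsig4 covers pgWAT alone, since in psWAT 15 of 17 libraries held at most 3 counts. Clec4f was at 0 in every iBAT library and was not called, except without TMM factors (adjusted p 0.0375). Of the further lists 13 of 14 microglia genes, 10 of 11 macrophage genes, 7 of 9 partners and regulators, 6 of 8 lipid-associated genes and 6 of 11 Kupffer cell genes were called lower, and 1, Slc40a1 of the Kupffer cell list, higher (1.48). Some of the microglia and Kupffer cell genes failed the count filter in iBAT and were tested through other organs. A call of such a gene as lower adds nothing to its level. The median over the 9 members that passed the filter in a fat depot was -2.77, against -0.29 over all genes. It counts Trem2 and Vsig4, which failed in iBAT, and is not used further. The members that passed in iBAT lay from -4.69 to -1.78.

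Fasting was examined in each organ with a joint edgeR test of all 5 fasted times against 0 h, with each time against 0 h, and with long (18 and 22 h) against short (0 and 2 h) fasting. The last kinds of comparison used the fold threshold as well, and those of an organ share its 0 h libraries. Members that passed the count filter numbered 7 in OB, BRN, CBL, BST, STM and iBAT, 10 in LIV, 9 in pgWAT and 8 in psWAT. Percentages of all genes are those of edgeR calls. In the joint test an unadjusted p under 0.05 was reached by 5425 of 16742 genes in OB, 2779 of 16749 in BRN and 3801 of 15976 in CBL. It was reached by 1870 of 16784 in BST, 3860 of 16281 in STM and 4938 of 14023 in LIV. In fat these were 6044 of 14529 in iBAT, 1693 of 16412 in pgWAT and 3195 of 16721 in psWAT. In the joint test 3 results passed: Mrc1 and Trem2 in OB and Mrc1 in LIV.

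Trem2 in OB was 13.8, 13.7 and 13.1 normalized CPM in the 3 libraries at 0 h, 14.5, 11.7 and 15.1 at 2 h, 12.9, 10.9 and 10.6 at 8 h, 15.6, 15.1 and 15.9 at 12 h, 22.1, 18.0 and 17.5 at 18 h, and 14.4, 15.1 and 13.1 at 22 h. The 18 h libraries stood above every other library of the organ, and those of 22 h overlapped with 0 h. The gene changed over time (edgeR adjusted p 0.00414), and at 18 h against 0 h its log2FC was 0.54 (SE 0.12, adjusted p 0.0107), under the fold threshold. At long against short fasting the log2FC was 0.29 (SE 0.08, adjusted p 0.0498). In the joint test 2 of 7 members were called in OB (3 at an unadjusted p under 0.05 and 2 by DESeq2), against 15.4% of all genes, and at 18 h without a fold threshold 1 of 7, against 12%. The joint call of Trem2 was lost without the replicates numbered 1 (adjusted p 0.0538) or 3 (0.152), in a range over alternatives of 1.22e-05 to 0.152, and held in each of 18 fits that left out 1 library. The 18 h difference no longer passed with lane as a covariate (0.71, adjusted p 0.178), without the replicates numbered 1 (0.41, adjusted p 0.237) or 3 (0.57, adjusted p 0.0515), or without the library of 0 h replicate 1 (0.54, adjusted p 0.0531) or of 18 h replicate 1 (0.41, adjusted p 0.0984), with adjusted p from 0.00189 to 0.237 over alternatives. Sequencing lane changed with time in OB, since all libraries of 0 and 2 h ran on lane 3 and all of 12, 18 and 22 h on lane 4, so lane and late fasting cannot be told apart for 18 h against 0 h. Within lane 4 the 18 h libraries stood above those of 12 and 22 h.

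Mrc1 in OB was 7.83, 5.14 and 7.57 at 0 h, 7.12, 7.91 and 7.98 at 2 h, 5.42, 3.35 and 4.58 at 8 h, 6.13, 5.63 and 7.48 at 12 h, 5.05, 7.53 and 4.99 at 18 h, and 3.87, 5.96 and 3.28 at 22 h (normalized CPM). The libraries of 8 and 22 h lay below all of 2 h, and overlapped with those of 0 h through the library at 5.14. The joint test gave an edgeR adjusted p of 0.0396, and neither a time against 0 h nor long against short fasting passed (8 h: log2FC -0.63, adjusted p 0.327; 22 h: -0.64, adjusted p 0.316; long against short: -0.50, SE 0.16, adjusted p 0.0612). This call was fragile. It was lost with a replicate block (adjusted p 0.0501), with lane as a covariate (0.107) and without the replicates numbered 1 (0.24) or 3 (0.404), in a range over alternatives of 0.000202 to 0.404. It was also lost when any of 11 libraries was left out: 0 h replicate 1 (0.0612), 2 h replicates 1 (0.0542), 2 (0.0645) and 3 (0.0803), 8 h replicates 2 (0.0762) and 3 (0.0867), 12 h replicates 1 (0.0517) and 3 (0.0570), 18 h replicate 1 (0.0627), and 22 h replicates 1 (0.0651) and 3 (0.0791). In OB the library of 0 h replicate 3 also carried choroid plexus genes (sum 301, median 6.07, most abundant Ttr), and without it 4 members were called in the joint test. The share of all genes called in that fit is not given.

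Mrc1 in LIV was 43.8, 37.6 and 48.5 at 0 h, 44.8, 45.9 and 47.2 at 2 h, 40.5, 38.9 and 48 at 8 h, 35.5, 33.2 and 34.2 at 12 h, 47.6, 59.2 and 55.7 at 18 h, and 53.4, 52.5 and 57.7 at 22 h. The 12 h libraries lay below all others, the 22 h libraries above all of 0 to 12 h, and those of 18 h above them except for the library at 47.6. The gene changed over time (edgeR adjusted p 0.0116), 1 of 10 members called against 16% of all genes in LIV. Long against short fasting gave a log2FC of 0.31 (SE 0.09, adjusted p 0.0304), past the p threshold alone, as did 15% of all genes, and single times against 0 h did not pass (12 h: -0.33, adjusted p 0.120; 18 h: 0.35, adjusted p 0.103; 22 h: 0.34, adjusted p 0.148). The joint call was lost without the replicates numbered 1 (adjusted p 0.0639), 2 (0.32) or 3 (0.0579), in a range of 0.000385 to 0.32, and held in each of 18 fits without 1 library.

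The long against short difference of Mrc1 in LIV did not hold with lane as a covariate, where it was 0.03 (adjusted p 0.968). In LIV all libraries of 0 and 2 h ran on lane 1 and all of 12, 18 and 22 h on lane 2, and within lane 2 the 12 h libraries (33.2 to 35.5) lay below those of 18 and 22 h (47.6 to 59.2). The difference also missed the p threshold without a count filter (0.31, adjusted p 0.0848) and without the replicates numbered 1 (0.36, adjusted p 0.0870), 2 (0.21, adjusted p 0.371) or 3 (0.34, adjusted p 0.0770), in a range of adjusted p from 0.0135 to 0.968. Leaving out 1 library ended it for 0 h replicates 1 (0.31, adjusted p 0.0578) and 2 (0.26, adjusted p 0.0923), 2 h replicate 2 (0.30, adjusted p 0.0711), 18 h replicate 2 (0.26, adjusted p 0.0657), and 22 h replicates 2 (0.32, adjusted p 0.0503) and 3 (0.29, adjusted p 0.0634). The sinusoidal endothelium sum was highest in LIV 22 h replicate 3 (343) and lowest in 0 h replicate 3 (239), and its part in the Mrc1 difference was not tested. Mrc1 had opposite signs in LIV and OB, and the difference between the organs, a test chosen after seeing the data, was 0.80 (SE 0.18, edgeR adjusted p 0.00384). Of all 12676 genes tested in this way 12.5% passed, and of the 7 members tested the 6 others had adjusted p from 0.405 to 0.921.

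The Kupffer cell genes in LIV did not pass the joint test. Timd4 was 11.7, 7.76 and 20.9 at 0 h, 5.72, 14.9 and 11.1 at 2 h, 4.91, 6.88 and 3.46 at 8 h, 6.42, 10.4 and 7.56 at 12 h, 8.61, 12.6 and 8.03 at 18 h, and 10.8, 12.2 and 10.1 at 22 h. The 8 h libraries were all below those of 0, 18 and 22 h, with a log2FC against 0 h of -1.41 (SE 0.37, edgeR adjusted p 0.0816). Clec4f had the smallest joint adjusted p of the members not called (0.0746). Its lowest time was 8 h, with 119.4, 113.4 and 113.9, and its highest 22 h, with 231.7, 208.9 and 166.9. Csf1r at 8 h had a log2FC of -0.83 (adjusted p 0.131). In LIV 6 of 10 members had an unadjusted p under 0.05 in the joint test, against 4938 of 14023 genes. DESeq2 called 5 members, for which the share of all genes is not given. The edgeR count of 1 in LIV became 2 without the library of 0 h replicate 3 or of 18 h replicate 2, and 3 without that of 2 h replicate 1 or of 12 h replicate 2. Of the further Kupffer cell genes 3 of 11 changed over time in LIV, against 16% of all genes: Cd163 (edgeR adjusted p 0.00563), Spic (0.0303) and C6 (0.0407). Of the 11 listed macrophage genes only the protease gene Ctss (0.0238) was called. Of the 9 listed partners and regulators only the transcription factor gene Irf8 (0.0182) was. No gene of the microglia and lipid-associated lists was called in the joint test in LIV. Ctss fell at 12 h by 1.20 on the log2 scale (adjusted p 0.0224).

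In OB, where Trem2 and Mrc1 were called, the further lists also held genes that changed over time, against 15.4% of all genes. Of 14 further microglia genes 8 were called, among them C1qb (adjusted p 0.00146), C1qa (0.0125), Fcrls, Gpr34 and Siglech. Of 10 macrophage genes tested 4 were called (Ctss, Fcgr3, Lyz2 and Mertk), of 8 lipid-associated genes 3 (Cd63, Fabp5 and Gpnmb), of 9 partners and regulators 2 (Csf1 and Tyrobp, the latter with adjusted p 0.0127), and of 6 Kupffer cell genes tested 1 (Slc40a1). Against 0 h the 14 microglia genes had a median log2FC of -0.29 at 8 h and 0.17 at 18 h, and the 7 members of -0.25 and 0.14. Across genes, which are not independent, the OB log2FC of long against short fasting had a Spearman rho of -0.39 with exon length. The median log2FC was 0.14 for genes under 1.5 kilobases and -0.08 for those over 5. Tyrobp (667 bases), C1qa (1040) and C1qb (1088) are short, and the member Mrc1 (6371) is long. The annotated length of Trem2 (4946) includes a retained intron. For all of these genes the part of length in their changes was not tested.

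**Figure D2:**
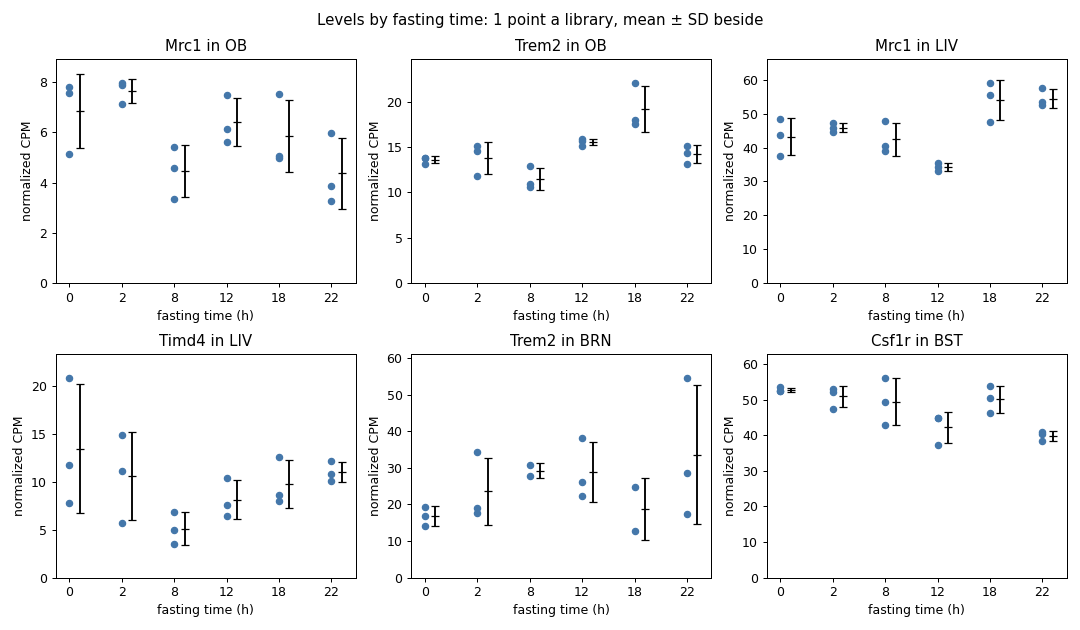
Level in normalized CPM against hours of fasting for Mrc1 and Trem2 in OB, Mrc1 and Timd4 in LIV, Trem2 in BRN and Csf1r in BST; points are libraries, and the larger marks are means with SD bars (2 or 3 libraries per time). In OB Trem2 is highest at 18 h (17.5 to 22.1), and in LIV Mrc1 is lowest at 12 h (33.2 to 35.5).

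In BRN no member was called in the joint edgeR test, where 0.00597% of all genes were, and the count was 0 at an unadjusted p under 0.05 and by DESeq2. Trem2 had the smallest adjusted p (0.388). It was 14.2, 19.4 and 16.9 normalized CPM at 0 h, 34.2, 17.7 and 18.9 at 2 h, 27.9 and 30.6 at 8 h, 26.2, 38 and 22.4 at 12 h, 12.7 and 24.7 at 18 h, and 28.7, 54.7 and 17.5 at 22 h. All libraries of 8 and 12 h stood above those of 0 h, while 22 h overlapped with it. At 22 h its log2FC was 1.116 (SE 0.38, adjusted p 0.0799). The library at 54.7 had the highest oligodendrocyte sum of BRN (22573 against a median of 9711, 4 genes, most abundant Mbp), and the part of what was dissected was not tested. Against 0 h, 3 of 35 tests had an unadjusted p under 0.05, edgeR called 0 members and DESeq2 1, against 5.93% of all genes by edgeR. At long against short fasting the counts were 0 by edgeR, 0 at an unadjusted p under 0.05 and 0 by DESeq2, against 1.97% of all genes. Of the 14 further microglia genes 2 rose, C1qa by 1.16 and C1qb by 1.25 at 12 h (log2FC, both edgeR adjusted p 0.0110) and by 1.27 and 1.00 at 18 h (adjusted p 0.0331 and 0.0406). Of all genes 3.42% were called at 12 h and 1.91% at 18 h. Both libraries retained at 18 h ran on lane 1, which also held 1 library of 0 h and 1 of 12 h. In BRN the log2FC of 22 h against 0 h had a rho of -0.48 with exon length across genes. C1qa (1040 bases) and C1qb (1088) are short, and the parts of length and lane in their changes were not tested.

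In BST the joint edgeR test called 0 members against 0.107% of all genes. At an unadjusted p under 0.05 there were 4 members, against 1870 of 16784 genes. DESeq2 called 2 members, for which the share of all genes is not given. Csf1r came closest (adjusted p 0.0868). It was 52.4, 52.5 and 53.5 at 0 h, 47.5, 53.1 and 52.3 at 2 h, 49.3, 42.9 and 56.3 at 8 h, 44.8, 37.2 and 44.8 at 12 h, 46.2, 53.8 and 50.6 at 18 h, and 40.4, 38.3 and 41 at 22 h. The libraries of 12 and 22 h lay below all of 0 h, by a log2FC of -0.37 at 22 h (SE 0.09, adjusted p 0.148). P2ry12 at 22 h was 15.5, 16.0 and 10.3 against 20.5, 28.6 and 22.8 at 0 h (log2FC -0.76, adjusted p 0.305). Mrc1 was 1.63, 2.1 and 1.83 against 3.99, 4.49 and 2.63 (log2FC -0.96, adjusted p 0.446). All BST libraries ran on 1 lane. Against 0 h 9 of 35 tests had an unadjusted p under 0.05, and edgeR and DESeq2 each called 0 members, against 0% of all genes by edgeR. At long against short fasting the counts were 3 unadjusted, 0 by edgeR and 0 by DESeq2, against 0% of all genes.

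CBL and OB complete the nervous organs. In CBL the joint edgeR test called 0 members against 2.99% of all genes, with 0 at an unadjusted p under 0.05 and 0 by DESeq2, and the smallest adjusted p was that of Trem2 (0.247). Against 0 h 4 of 35 tests in CBL had an unadjusted p under 0.05 and edgeR and DESeq2 called 0, against 0.676% of all genes by edgeR. For long against short fasting in CBL all 3 counts were 0, against 0.131%. Of the further lists Mertk, a receptor for dying cells, and Il18bp changed over time in CBL (adjusted p 0.0328 and 0.0374), and Il18bp fell by 1.22 at 22 h. In OB edgeR and DESeq2 called 0 members against 0 h with the fold threshold (7 of 35 tests at an unadjusted p under 0.05), against 0.544% of all genes by edgeR. For long against short fasting in OB both called 0 (2 unadjusted), against 0.197%.

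In LIV edgeR and DESeq2 called 0 members at single times against 0 h, with 10 of 50 tests at an unadjusted p under 0.05, against 4.16% of all genes by edgeR. For long against short fasting both called 0 (2 unadjusted), against 1.38%. In STM the joint edgeR test called 0 members against 6.55% of all genes, with 1 at an unadjusted p under 0.05 and 1 by DESeq2, and Csf1r came closest (adjusted p 0.0818). Against 0 h both tools called 0 members in STM (5 of 35 tests unadjusted), against 8.75% of all genes by edgeR, and for long against short fasting 0 (1 unadjusted), against 7.39%. In STM 1 lipid-associated gene, Spp1, which encodes osteopontin, changed over time (adjusted p 0.0318) and fell by 2.29 at 18 h and by 1.91 at long against short fasting, and Mertk rose by 1.22 at 18 h (log2 scale). In STM all libraries of 0 and 2 h ran on lane 5 and all of 18 and 22 h on lane 6, so lane and late fasting cannot be told apart there.

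By the joint edgeR test used here, iBAT had the largest share of called genes of the 9 organs (29%). It called 0 of 7 members there, with 1 at an unadjusted p under 0.05 and 0 by DESeq2, and the smallest adjusted p was that of Adgre1 (0.106). Against 0 h both tools called 0 members (2 of 35 tests unadjusted), against 29.8% of all genes by edgeR, and for long against short fasting 0 (0 unadjusted), against 12.7%. Genes of the further lists were called in iBAT at 22 h (edgeR adjusted p from 0.00124 to 0.0494), where 29.7% of all genes were called at that time. The 2 libraries retained there ran on lanes 1 and 3, which no other retained iBAT library used, so lane and 22 h cannot be told apart. At 22 h 4 genes of the microglia list rose (Aif1 by 2.06, C1qa 1.98, C1qb 1.59 and C1qc 1.51 on the log2 scale) of 10 tested. Over the organs C1qb and C1qc were among the genes most like Csf1r, and C1qc and C1qa among those most like Cd68. The name of the list does not tell the cell that carries them in iBAT. Of 11 macrophage genes 5 rose (Fcgr3 by 2.42, Ctss 1.35, Cbr2 1.32, Pf4 1.30 and Mpeg1 1.29) and Mertk fell by 1.57. Among 9 partners and regulators Il34 rose by 1.08, while Csf1, the ligand of the receptor that Csf1r encodes, fell by 2.12. Of 8 lipid-associated genes Lgals3 rose by 1.42 and Cd63 by 1.37, and of 7 Kupffer cell genes Il18bp fell by 1.22. Across genes the 22 h log2FC in iBAT had a rho of -0.52 with exon length, and the part of length in these changes was not tested.

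In white fat the joint edgeR test called 0 genes of any kind, 0% in pgWAT and 0% in psWAT. In pgWAT 0 members had an unadjusted p under 0.05 and DESeq2 called 0, with the smallest adjusted p for P2ry12 (0.593). In psWAT 2 members had an unadjusted p under 0.05 and DESeq2 called 2, with the smallest edgeR adjusted p for Adgre1 (0.158). Against 0 h both tools called 0 members in pgWAT (0 of 45 tests unadjusted), against 0.00609% of all genes by edgeR, and for long against short fasting 0 (0 unadjusted), against 0.00609%. In psWAT the counts by both tools were 0 against 0 h (2 of 40 tests unadjusted) and 0 for long against short fasting (1 unadjusted), each against 0% of all genes by edgeR. The spread between mice was wide in both depots, as with Timd4 in psWAT (5.47 to 125.4) and Adgre1 in pgWAT (12.4 to 75.1).

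Across the retained libraries of the 9 organs, which share organs and mice, the levels of some members ran together (Pearson r of log2 of normalized CPM plus 1). The closest pair was Clec4f and Vsig4 (r = 0.898), followed by Cd68 and Mrc1 (0.820), Adgre1 and Cd68 (0.813) and Adgre1 and Mrc1 (0.808). The microglia genes gave 0.783 for Tmem119 and Trem2, 0.768 for P2ry12 and Trem2 and 0.593 for P2ry12 and Tmem119. Among Kupffer cell genes Clec4f and Timd4 gave 0.351, and the most negative pair named here was Clec4f and Tmem119 (-0.619). For each member, the 3 genes outside the 10 with the highest r were sought among the 21601 of the fit over organs. For Csf1r these were C1qb (0.873), C1qc (0.849) and Tyrobp (0.839), for Cd68 Fcer1g (0.926), C1qc (0.892) and C1qa (0.881), and for Adgre1 C3ar1 (0.891), Tlr8 (0.883) and Clec4a2 (0.877).

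Mrc1 was most like Folr2 (0.956), Ifi207 (0.937) and Ifi204 (0.936). Timd4 was most like Abcg3 (0.963), the scavenger receptor gene Marco (0.958) and 9330175E14Rik (0.955). Clec4f was most like genes of the liver at large, Agxt (0.997), Serpina11 (0.996) and Gm4788 (0.996), and Vsig4 like Serpina3m (0.973), C6 (0.957) and Mirt2 (0.955). P2ry12 was most like Stac2 (0.929), Nxph1 (0.922) and Usp11 (0.915), Tmem119 like Timp2 (0.910), Evc2 (0.902) and Adcy5 (0.884), and Trem2 like D430019H16Rik (0.881), Plppr3 (0.872) and H1fx (0.866). The part of the differences between organs in these coefficients was not tested, and they are given as a description.

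In the RefSeq promoters (GRCm38.p6), 7 of the 10 genes had an entry, all but Adgre1, Csf1r and Tmem119. The 250 bases before the start were searched for GAGGAA on both strands, the core bound by PU.1, the macrophage transcription factor that Spi1 encodes. It was found in 4 of the 7, against 23.3% of 32851 promoters (7639). Mrc1 held it 3 times on the other strand (the nearest 35 bases before the start), Vsig4 in a pair of places (the nearer at 53), Cd68 in 1 place (225) and Trem2 in 1 on the other strand (40), while Clec4f, P2ry12 and Timd4 held none in this window. A match is a description and no site of binding. The windows of Cd68, a general macrophage gene, Vsig4, a Kupffer cell gene, and Trem2, a microglia gene, are shown as examples from each role, from chr11:69666171-69666420 (minus strand), chrX:96293439-96293688 (minus strand) and chr17:48346151-48346400 (plus strand). Each is written 5′ to 3′ on the gene's strand with the motif, or its reverse complement in Trem2, in capitals.
Cd68: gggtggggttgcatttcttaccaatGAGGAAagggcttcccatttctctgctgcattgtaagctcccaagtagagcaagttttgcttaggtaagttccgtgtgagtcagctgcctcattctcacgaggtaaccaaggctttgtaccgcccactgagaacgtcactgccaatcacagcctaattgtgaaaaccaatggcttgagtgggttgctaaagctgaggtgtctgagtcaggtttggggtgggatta
Vsig4: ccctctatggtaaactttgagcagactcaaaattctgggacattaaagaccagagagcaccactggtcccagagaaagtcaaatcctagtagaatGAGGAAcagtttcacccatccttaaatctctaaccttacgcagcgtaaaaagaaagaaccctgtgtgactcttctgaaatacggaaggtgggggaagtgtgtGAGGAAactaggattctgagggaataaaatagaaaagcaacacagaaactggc
Trem2: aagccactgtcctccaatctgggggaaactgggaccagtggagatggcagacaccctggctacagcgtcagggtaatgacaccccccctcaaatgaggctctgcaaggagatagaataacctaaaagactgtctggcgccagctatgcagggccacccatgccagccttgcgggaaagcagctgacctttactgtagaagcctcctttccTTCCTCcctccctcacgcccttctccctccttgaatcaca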

How the data were processed

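Stranded mRNA libraries of 9 organs from 18 mice were measured, and the authors deposited raw read counts per gene, unnormalized and unfiltered, for all 162 libraries. According to the submitters' processing notes the reads were aligned with TopHat2 2.1.1 to GRCm38.p5 and counted with HTSeq 0.9.1. The 5 libraries that the study excluded were left out (STM replicate 3 of 12 h, psWAT replicate 2 and iBAT replicate 1 of 22 h, and BRN replicates 1 of 18 h and 3 of 8 h). A gene entered an organ's tests at a CPM equal to 10 counts in the organ's median library, in at least 3 retained libraries, and the fit over organs if it did so in any organ.

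Tests used edgeR 4.0.16 (TMM factors, robust quasi-likelihood) with limma 3.58.1 in R 4.3.3 on all genes, with p adjusted by Benjamini-Hochberg within a comparison. Calls needed an adjusted p under 0.05 and, except in the joint time test, an absolute log2FC over 1. Organs were compared with fasting time in the model. Animal numbers stand for the same mouse in all organs, and replicate numbers restart at each time. Alternatives were DESeq2 1.42.0, plain totals, no filter, all 162 libraries, each replicate number left out, a replicate or animal block, lane as a covariate, no fold threshold, and psWAT without its library with cerebellar genes. Leaving out each library of OB and LIV, and pgWAT without 3 libraries, were chosen after seeing the data.

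The 10 genes are named where edgeR called them between groups, and counts by other tools or alternatives are mostly given without names. Genes of the further lists are named by example, chosen among those called or with the smallest adjusted p of a list, and not every called gene is named. Between organs a list gene may have passed the count filter only on the side where it was higher, and such a call adds nothing to its level. Like genes are the 3 with the highest Pearson r of log2 of normalized CPM plus 1. The members and lists were chosen with earlier results of these data known. Gene positions and exon lengths come from Gencode M21 on GRCm38, while the authors counted on M16, and promoters from RefSeq on GRCm38.p6. Replicate pairs were checked for near-identical counts by a chi-square per degree of freedom, which lay between 1.84 and 283 over 152 pairs, so none of these pairs, each within an organ and time, was a copy. Deviations of libraries with the same replicate number at different times had mean correlations from -0.0799 to 0.160 by organ, and those of the same mouse in different organs 0.0227. The code was tested on simulated data. Floors are 3 counts in a library and cover counting error only. Tables and figures used Python 3.11.15, pandas 2.3.3, numpy 2.4.6, scipy 1.17.1 and matplotlib 3.10.9.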

Additional observations from a re-analysis of the deposited data

Results flagged for a closer look

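Mrc1 had opposite signs in LIV and OB, and the test of that difference was chosen after seeing them. Its log2FC of long (18 and 22 h) against short (0 and 2 h) fasting in LIV minus that in OB was 0.80, by a test of that difference itself (SE 0.18, edgeR adjusted p 0.00384). In both organs the lane changed with time, and with lane as a covariate the LIV log2FC was 0.03 (adjusted p 0.968). Across genes the log2FC of long against short fasting had a rho with exon length of -0.05 in LIV and -0.39 in OB. The parts of lane and of length in the difference were not tested.

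Other values came from libraries that the study left out and that were used above only in the alternative with all libraries, where a member stood above every retained library of the same organ. In BRN 18 h replicate 1 Trem2 was at 79.4 normalized CPM (57 counts) against at most 54.7. That library held 279848 counts in all, with a TMM factor of 2.56, and its plain CPM of Trem2 was 203.7. It held 0 counts of Adgre1, Csf1r, Cd68, Mrc1, P2ry12 and Tmem119, where 3 counts equal 4.18 normalized CPM. In STM 12 h replicate 3 Csf1r was at 34 (127 counts) against 26.3, Cd68 at 21.7 (81 counts) against 12.8, Mrc1 at 15 (56 counts) against 12.1 and Tmem119 at 29.1 against 19.4. In iBAT 22 h replicate 1 Timd4 was at 1.94 (4 counts) against 1.68 and Tmem119 at 11.2 (23 counts) against 5.63.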

How the results depend on the processing

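The counts of members called between organs (7 in LIV, 8 in the nervous organs, 5 in CBL, 7 in pgWAT over psWAT and 9 in iBAT) stayed within 1.5 times under every alternative run. They include calls of genes that passed the count filter on the higher side alone or in neither group: Clec4f in LIV and between the white depots, Vsig4 in the nervous organs, the white depots and iBAT, Timd4 in the nervous organs and Trem2 in iBAT. Of all counts and alternatives 290 stayed so and 44 moved. For single genes 451 values kept their call, 39 lost it and none run changed sign while called.

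In the joint time test the OB count of 2 was 1 with a replicate block and 1 with lane as a covariate, 0 to 2 without each replicate number, and 1 to 4 without single libraries, with 4 without 0 h replicate 3 and 1 without the 11 libraries on which Mrc1 depended. The LIV count of 1 was 5 by DESeq2, 6 without a filter, 0 to 1 without each replicate number and 1 to 3 without single libraries. Counts of 0 became, by DESeq2, 2 in BST, 1 in STM and 2 in psWAT. Without a filter they became 1 in BRN, 3 in BST and 1 in iBAT, and without each replicate number 0 to 1 in iBAT and 0 to 2 in psWAT.

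Against 0 h, counts of 0 by edgeR became 1 in BRN by DESeq2, 1 in BRN and 1 in LIV without a filter, and 1 in OB without a fold threshold. Without each replicate number they were 0 to 1 in OB, 0 to 2 in BRN, and 0 to 1 in BST, iBAT and psWAT. At long against short fasting they became 1 in OB and 1 in LIV without a fold threshold, and 0 to 1 in BRN without each replicate number. The causes were not tested. Leaving out a replicate number leaves 2 mice per time, or 1 where a library was excluded, and a lone library is then taken to vary like the others.

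The lane covariate could not be fitted in iBAT, and CBL and BST ran on 1 lane each. With 2 or 3 mice per time, small changes in genes of few counts may have gone unseen, which was not tested. Levels under 1.29 normalized CPM lie at the floor of the shallowest library.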
